A study of Mus musculus with 36 samples.

Results

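Type I interferon response genes were followed in mouse blood 7 days after exposure to x-rays, to mixed fields of x-rays and neutrons, or to neutrons alone. They were 9 genes, *Ifit1*, *Ifit2*, *Ifit3*, *Isg15*, *Rsad2*, *Oas1a*, *Oasl2*, *Irf7*, and *Usp18*, taken by gene name from the array annotation, with 11 of 39429 probes and 9 of 31093 gene names. All 9 were significantly above background on all 36 arrays, and 8 entered the test, while *Usp18* was left out because only 11.1% of its arrays differed 1.5-fold from its median. No member probe was saturated on any array.

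The blood came from male C57BL/6J mice aged 8 to 10 weeks at exposure, with 6 mice in each of 6 groups and 1 single-colour array per mouse. Controls were sham-irradiated. X-ray mice received 3 Gy of x-rays, and mixed 5%, 15%, and 25% mice received 3 Gy in all, of which neutrons made up that percentage. Neutron-alone mice received 0.75 Gy from the neutron source without added x-rays. Per the study's methods that source also delivers a small share of photons, although the sample titles give the exposure as all neutrons, so neutron alone here means no added x-rays. The stated total doses are 0.75 and 3 Gy, so that this group and the mixed fields differ in total dose as well as in neutron share. Every group was sampled at day 7 only, so that nothing here describes earlier days.

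Type I interferons bind a receptor made of *Ifnar1* and *Ifnar2*, whose kinases *Jak1* and *Tyk2* pass the signal on. A complex that holds *Stat2* and *Irf9* then binds interferon-stimulated response elements (ISREs) in the promoters of its target genes. The products of such genes block virus replication (*Ifit* proteins, *Rsad2*, *Isg15*), sense viral RNA (*Oas* proteins), amplify interferon production (*Irf7*), or damp the receptor (*Usp18*), and in whole blood they are read as a sign of interferon exposure of white cells.

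Promoter stretches are shown for 5 members, *Isg15*, *Rsad2*, *Ifit3*, *Ifit2*, and *Irf7*, to let the reader see where the ISRE core lies. They were read from RefSeq (GRCm38.p6), cover the 170 bases before the annotated start on the strand of the gene, and have in capitals the 10-base core GAAANNGAAA or its reverse complement TTTCNNTTTC.
*Isg15* (chr4:156200819-156200988, minus strand): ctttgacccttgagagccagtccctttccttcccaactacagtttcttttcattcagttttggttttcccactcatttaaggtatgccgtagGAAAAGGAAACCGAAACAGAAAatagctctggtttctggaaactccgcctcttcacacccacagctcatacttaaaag
*Rsad2* (chr12:26456453-26456622, minus strand): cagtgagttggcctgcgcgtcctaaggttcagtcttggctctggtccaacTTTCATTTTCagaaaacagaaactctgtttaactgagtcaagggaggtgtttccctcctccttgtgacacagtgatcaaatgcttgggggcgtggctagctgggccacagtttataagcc
*Ifit3* (chr19:34583359-34583528, plus strand): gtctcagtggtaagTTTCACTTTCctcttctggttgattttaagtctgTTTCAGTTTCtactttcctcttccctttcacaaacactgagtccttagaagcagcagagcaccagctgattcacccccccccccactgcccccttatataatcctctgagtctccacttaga
*Ifit2*, upstream start (chr19:34550524-34550693, plus strand): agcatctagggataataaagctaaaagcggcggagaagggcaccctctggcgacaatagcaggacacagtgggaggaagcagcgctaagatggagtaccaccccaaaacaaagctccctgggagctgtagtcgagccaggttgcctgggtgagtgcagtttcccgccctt
*Ifit2*, downstream start (chr19:34550918-34551087, plus strand): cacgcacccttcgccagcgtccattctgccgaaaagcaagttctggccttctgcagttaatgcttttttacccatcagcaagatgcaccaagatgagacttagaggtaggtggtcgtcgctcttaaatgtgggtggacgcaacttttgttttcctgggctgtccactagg
*Irf7* (chr7:141266425-141266594, minus strand): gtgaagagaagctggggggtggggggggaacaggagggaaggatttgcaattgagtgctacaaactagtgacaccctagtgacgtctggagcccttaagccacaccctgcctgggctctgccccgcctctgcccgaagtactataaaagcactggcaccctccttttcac
The core was searched on both strands over 250 bases before and 50 after the start. It was found in 5 of the 8 members with a promoter entry, *Isg15*, *Rsad2*, *Ifit1*, *Ifit3*, and *Oas1a*, against 3.44% of 32851 mouse promoter entries. *Isg15* held 3 overlapping matches that begin 78, 72, and 66 bases before the start, *Rsad2* held 1 at 120 bases, *Ifit3* held 2 at 156 and 122 bases, *Ifit1* held 2 at 104 and 85 bases, and *Oas1a* held 2 overlapping matches at 20 and 14 bases. These letters were not present in the windows of *Ifit2*, *Irf7*, and *Oasl2*.

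Levels below are log2 intensities above the median of the same array, and a difference of 1 on this scale is a doubling. A gene was called when limma, fitted on the 12 arrays of a comparison over 15077 genes, gave an unadjusted p below 0.001 and a p below 0.05 after Benjamini-Hochberg adjustment. Blood holds many cell types, and in such bulk RNA fewer cells of a type and less RNA per cell cannot be told apart. Array medians ranged from 2.77 to 5.30 (log2 intensity), and 15581 to 21300 probes per array were well above background. The arrays were scanned in 4 sessions: 5 control and 5 x-ray arrays in the first, 5 arrays each of the 5% and 15% mixed fields in the second, all 12 arrays of the 25% mixed field and neutron alone in the third, and 1 array each of controls, x-rays, 5%, and 15% on a slide of the fourth. For the 25% mixed field and neutron alone against controls or x-rays, session and exposure cannot therefore be told apart. The 5% and 15% mixed fields share only that single slide with the controls and with x-rays.

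Against controls, the members split. *Isg15* and *Rsad2* rose 2.93- to 4.39-fold and *Ifit2* fell after every exposure, while *Irf7* fell after the 25% mixed field and rose after neutron alone. Of the 8 members tested, 2 were called higher and 1 lower after x-rays, and likewise after the 5% and the 15% mixed field. The counts were 2 higher and 2 lower after the 25% mixed field, and 3 higher and 1 lower after neutron alone. Among all genes tested, 29.8% were called after x-rays, 23.1% after the 5% mixed field, 29.2% after the 15% mixed field, 24.8% after the 25% mixed field, and 36.5% after neutron alone, so that 3 or 4 of 8 members is not far above the background of each comparison. At an adjusted p below 0.05 alone, 4, 5, 5, 7, and 7 of 8 members passed, against 58.7, 44.5, 49.6, 47, and 59.5% of all genes. The median change of the 8 members was -0.13, -0.10, 0.19, 0.19, and 0.80 in that order, against -0.11, -0.078, -0.019, -0.12, and -0.12 for all genes. The 5 comparisons share the same 6 control arrays, so they are given side by side.

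**Figure D1:**
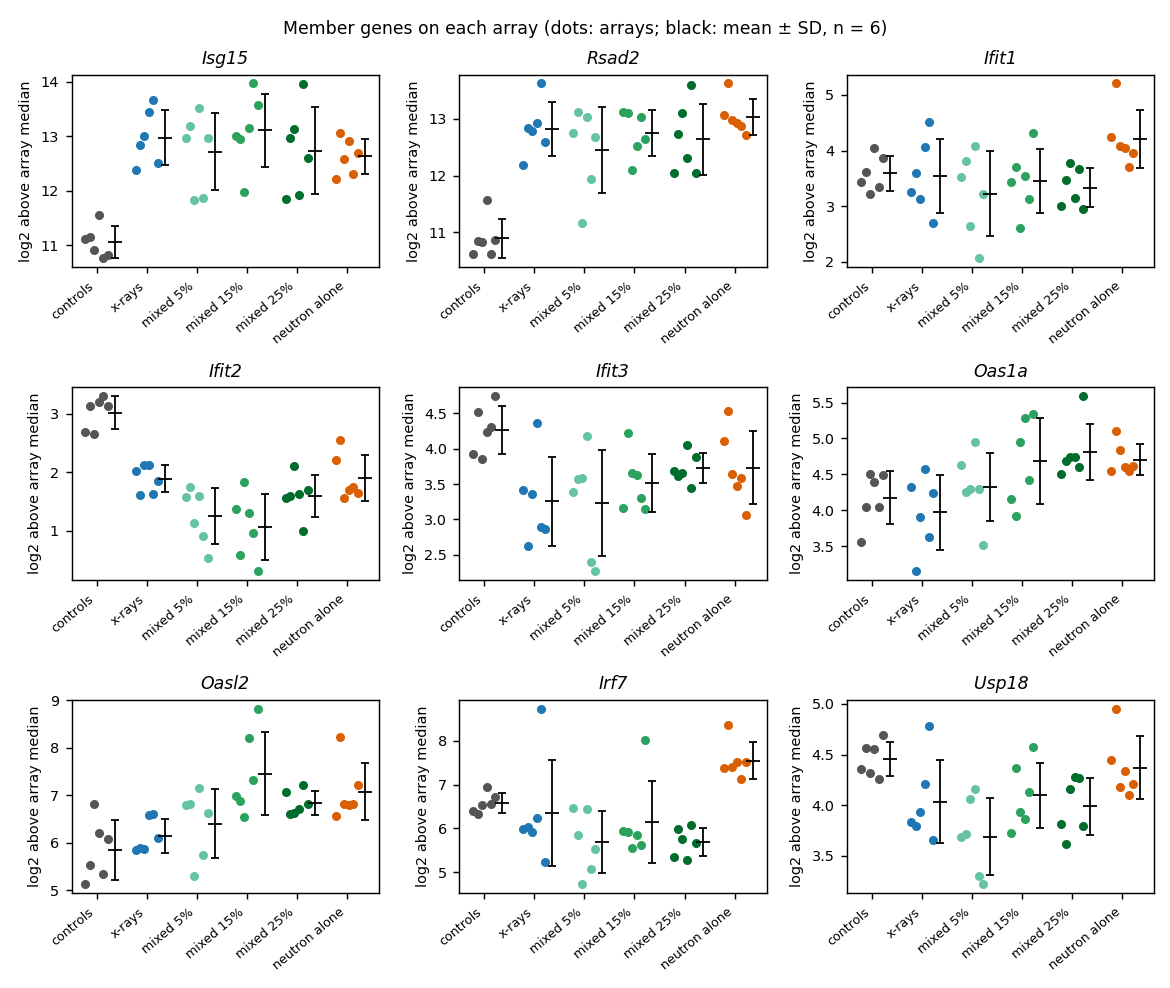
Level of each member on every array (y axis, log2 intensity above the array median; x axis, the 6 groups). Dots are arrays, and the black bars are the mean ± SD of 6 arrays. The control dots lie lowest for *Isg15* and highest for *Ifit2*. For *Rsad2* they lie lowest except that 1 array of the 5% mixed field, at 11.17, is below the highest control, at 11.57. The neutron-alone dots lie highest for *Irf7*, where 1 x-ray array at 8.73 and 1 array of the 15% mixed field at 8.02 stand apart.

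*Isg15*, a ubiquitin-like protein that is joined to other proteins after interferon, was raised after every exposure. Its brighter probe (mm9, chr4:155573649-155573708) lay at 10.76, 11.01, and 11.56 in the lowest, median, and highest control array. The same 3 values were 12.38, 12.92, and 13.67 after x-rays and 12.22, 12.63, and 13.06 after neutron alone. In the 5%, 15%, and 25% mixed fields the arrays ran from 11.82 to 13.52, from 11.98 to 13.97, and from 11.84 to 13.95. No exposed array overlapped the controls, as was also the case, upward, for 14.5, 7.73, 10.9, 12.1, and 15% of all genes in the x-ray, 5%, 15%, 25%, and neutron-alone comparisons. The log2 change was 1.92 ± 0.25 (SE) after x-rays, 1.67 ± 0.31 after the 5%, 2.05 ± 0.30 after the 15%, and 1.68 ± 0.33 after the 25% mixed field, and 1.58 ± 0.18 after neutron alone. The limma adjusted p was 5.2e-05, 0.000826, 0.000107, 0.001, and 1.24e-05. A second, dimmer *Isg15* probe without a position in the array annotation moved by 2.01, 1.58, 1.79, 1.88, and 1.38 and was called in all 5.

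*Rsad2*, which encodes viperin, an enzyme that makes a chain-terminating nucleotide against viruses, followed the same course. Its probe (mm9, chr12:27127859-27127918) lay at 10.62, 10.85, and 11.57 in the lowest, median, and highest control. After neutron alone the values were 12.71, 12.95, and 13.62, and after x-rays 12.18, 12.81, and 13.62. All arrays after x-rays, the 15% and 25% mixed fields, and neutron alone were above every control. This was also the case for 14.5, 10.9, 12.1, and 15% of all genes in the same order. After the 5% mixed field 5 of 6 arrays were above every control, and the lowest was at 11.17. The log2 change was 1.93 ± 0.25 (SE), 1.55 ± 0.33, 1.85 ± 0.24, 1.74 ± 0.29, and 2.13 ± 0.19 after x-rays, 5%, 15%, 25%, and neutron alone, with limma adjusted p of 5.19e-05, 0.00193, 5.13e-05, 0.000311, and 1.53e-06.

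Both rises were also measured before any scaling, with some overlap. Unscaled, the *Isg15* intensity ran from 36740 to 67810 in controls, from 92540 to 158100 after x-rays, and from 138100 to 250300 after the 25% mixed field. The lowest arrays after the 5% mixed field (63160), the 15% mixed field (58880), and neutron alone (60550) were within the control range. On this unscaled intensity *Rsad2* ran from 33300 to 68550 in controls, from 80320 to 122000 after x-rays, from 98240 to 213800 after the 25% mixed field, and from 72330 to 142700 after neutron alone, while 1 or more arrays of the 5% and 15% mixed fields, at 57470 and 63450 in the lowest, were within the control range. With quantile normalization the *Isg15* change was no longer called after the 5% and 25% mixed fields and neutron alone (1.00, 1.11, and 0.83), nor the *Rsad2* change after the 5% and 15% mixed fields (0.92 and 0.96). With the deposited expression values both lost their call after the 5% mixed field, and *Isg15* after neutron alone. Among 14 alternative settings, *Isg15* was called in 13, 9, and 11 after x-rays, 5%, and 15%, and *Rsad2* in 13, 9, and 9. Among 13 for the 25% mixed field and for neutron alone, *Isg15* was called in 10 and 10, and *Rsad2* in 12 and 12. Within the single slide that holds them with a control, 1 array against 1, *Isg15* was higher by 0.96 and 1.06 and *Rsad2* by 1.10 and 1.25 in the 5% and 15% mixed fields.

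**Figure D2:**
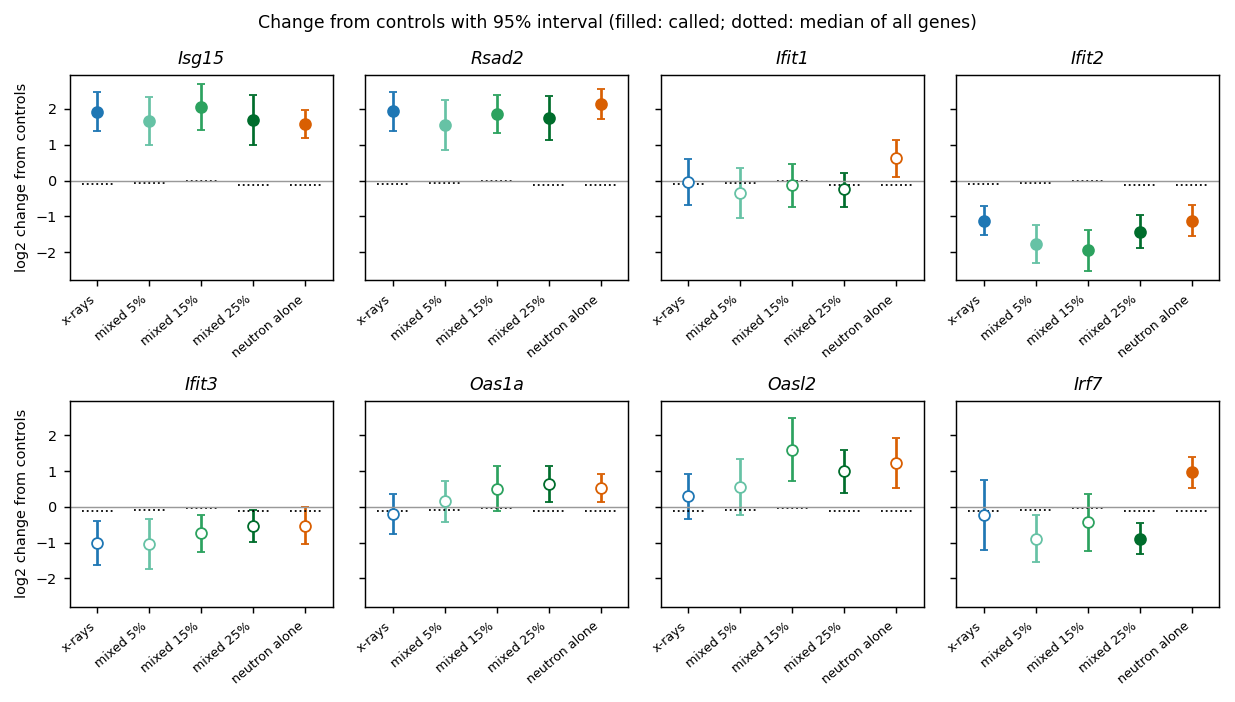
Change of the 8 tested members from controls (y axis, log2; x axis, the 5 exposures) with 95% intervals of the limma fit. Filled dots were called, and the dotted lines are the median change of all genes tested. The intervals of *Isg15* and *Rsad2* lie above 0 and those of *Ifit2* below 0 in all 5 exposures, and *Irf7* is filled on either side of 0, at -0.89 for the 25% mixed field and 0.97 for neutron alone.

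The *Ifit* genes, whose proteins bind viral RNA and lie side by side on mouse chromosome 19, did not follow *Isg15*. *Ifit2* (mm9, chr19:34650244-34650303) lay at 2.65, 3.14, and 3.30 in the lowest, median, and highest control, and its arrays ran from 1.61 to 2.13 after x-rays, from 0.53 to 1.75, from 0.31 to 1.84, and from 0.99 to 2.11 after the 5%, 15%, and 25% mixed fields, and from 1.56 to 2.55 after neutron alone. Every exposed array was below every control, as was also the case for 17, 13.8, 16.2, 15.4, and 20.2% of all genes. *Ifit2* fell by 1.12, 1.77, 1.95, 1.43, and 1.12 on the log2 scale after x-rays, 5%, 15%, 25%, and neutron alone (limma adjusted p 0.000353, 0.000125, 6.97e-05, 0.000159, and 0.000328). It was well above background on 33 of 36 arrays. Within the single shared slide the difference was -1.74 in the 5% and -0.81 in the 15% mixed field.

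*Ifit3* (mm9, chr19:34663105-34663164) also had values below 0 throughout, without a call. Its log2 change was -1.01, -1.03, -0.74, -0.54, and -0.53 in the same order (limma adjusted p 0.00897, 0.0196, 0.0208, 0.042, and 0.073), and 5, 5, 5, 4, and 4 of 6 arrays were below every control. *Ifit1* (mm9, chr19:34723796-34723855) had changes of -0.05, -0.36, -0.13, and -0.25 after x-rays and the mixed fields, with 95% intervals that reach from -1.06 to 0.59, and 0.62 after neutron alone (limma adjusted p 0.0386, not called). The sign of *Ifit1* after x-rays turned with the scaling, to 0.30 on the 75th percentile. Neutron-alone replicate 2, at 5.21, stood above the other 5 arrays of its group (3.70 to 4.24), and without it the change of *Ifit1* was 0.42. With the background model that leaves out the 100 lowest spots of each array it was -0.06.

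The oligoadenylate synthetase members make or resemble the enzymes that make the second messenger for RNase L. *Oasl2* (mm9, chr5:115362168-115362227) ran from 5.13 to 6.82 in controls and had changes of 0.29, 0.55, 1.60, 0.99, and 1.22, of which none was called. The limma adjusted p was 0.0049 for the 15% and 0.00999 for the 25% mixed field and 0.00588 for neutron alone, with 5, 2, and 2 of 6 arrays above every control. The highest control, replicate 3, lies on the shared slide, and within that slide *Oasl2* was lower by 1.08 in the 5% and by 0.29 in the 15% mixed field, the opposite direction. Without that control the changes after the 15% and 25% mixed fields and neutron alone were 1.80, 1.18, and 1.42, and all 3 were called. Without replicate 3 of the 15% mixed field, the array on that slide, its change was 1.79 and was called too.

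*Oas1a* (mm9, chr5:121348338-121348397) had changes of -0.20, 0.15, 0.51, 0.64, and 0.54, none of them called. All 6 arrays after the 25% mixed field and after neutron alone were above every control. This was also the case for 12.1 and 15% of all genes. The limma adjusted p was 0.0404 and 0.0214. A brighter *Oas1a* probe (mm9, chr5:121326738-121326797), which the annotation also assigns to the paralog *Oas1g*, changed by -0.15, 0.19, 0.61, 0.46, and 0.21 and was not called either. It varied 1.5-fold on only 19.4% of arrays and did not represent the gene. Signal shared with the paralog cannot be separated here.

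*Irf7*, the transcription factor that amplifies interferon production, differed in direction between exposures. In controls its lowest, median, and highest arrays were 6.33, 6.54, and 6.94, after the 25% mixed field 5.29, 5.70, and 6.09, and after neutron alone 7.12, 7.45, and 8.36. The 3 groups do not overlap. Among all genes, 15.4% had every array of the 25% mixed field below every control, and 15% every neutron-alone array above every control. After x-rays the arrays ran from 5.23 to 6.25 apart from replicate 5 at 8.73, after the 15% mixed field from 5.55 to 5.94 apart from replicate 6 at 8.02, and after the 5% mixed field from 4.73 to 6.47.

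The change of *Irf7* from controls was -0.22 ± 0.46 (SE) after x-rays, -0.89 ± 0.31 after the 5%, -0.43 ± 0.37 after the 15%, and -0.89 ± 0.20 after the 25% mixed field (limma adjusted p 0.697, 0.029, 0.351, and 0.00269), and only the last was called. After neutron alone it was 0.97 ± 0.20 (limma adjusted p 0.000934), which was called. Without x-ray replicate 5 the x-ray change was -0.70, and without replicate 6 the change after the 15% mixed field was -0.81. With a background model that leaves out the 100 lowest spots of each array, the rise after neutron alone was 0.20 and no longer called. It was also lost with the deposited expression values (0.78), the replicate block, and a single model over all arrays (0.97 in both), and it was called in 8 of 13 settings. The rise was not seen in unscaled intensity, where the median array was at 2198 in controls (1613 to 2760) and at 2114 after neutron alone (1659 to 3717). The array medians used for centring were 4.33 to 4.7 in controls and 3.22 to 3.93 after neutron alone, without overlap. The fall after the 25% mixed field was likewise called in 8 of 13 settings. Among others, this fall was not called on the 75th percentile scaling (-0.76), nor when any of 8 of the 12 arrays was left out.

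*Usp18*, a protease that removes *Isg15* from proteins and damps the receptor, was tested apart with exact two-sided permutation tests, adjusted over the 10 comparisons. Its probe (mm9, chr6:121220874-121220933) ran from 4.26 to 4.69 in controls and from 3.22 to 4.16 after the 5% mixed field, below every control. In that comparison 13.8% of the genes tested, a set without *Usp18*, also lay wholly below the controls. The differences from controls were -0.42 after x-rays, -0.77, -0.36, and -0.47 after the 5%, 15%, and 25% mixed fields, and -0.08 after neutron alone, with exact permutation adjusted p of 0.0952, 0.0216, 0.0952, 0.0325, and 0.739. The smallest exact p that 6 against 6 arrays allow is 0.00216, so that the threshold of 0.001 cannot be reached. These values depended on the scaling. On the 75th percentile, on probes detected on all arrays, and after quantile normalization, the x-ray difference was -0.08, -0.13, and -0.10, and the neutron-alone difference 0.18, 0.10, and 0.19. The exact permutation adjusted p of the 25% mixed field was 0.108, 0.0938, and 0.0649 there, and that of the 5% mixed field 0.0433 in all 3.

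Each neutron-containing exposure was also compared with x-rays. In the mixed fields neutrons took the place of part of the x-rays within 3 Gy, and neutron alone had no added x-rays. These comparisons therefore cannot show whether neutrons add to the response to a fixed x-ray dose. No member was called in any of the 4 comparisons, in which 0, 4.13, 2.58, and 12.9% of all genes were called for the 5%, 15%, and 25% mixed fields and neutron alone. At an unadjusted p below 0.05 limma gave *Ifit2* in the 5% mixed field, *Ifit2* and *Oasl2* in the 15%, *Oas1a* and *Oasl2* in the 25%, and *Oas1a*, *Oasl2*, and *Irf7* in neutron alone, that is 1, 2, 2, and 3 of 8 members, against 23.2, 28.1, 29.3, and 39.9% of all genes. The rise of *Isg15* differed from that after x-rays by -0.25, 0.13, -0.24, and -0.35, and the widest of the 4 intervals ran from -1.04 to 0.56. For *Rsad2* the differences were -0.38, -0.07, -0.19, and 0.21. *Oasl2* was higher than after x-rays by 1.31 in the 15% mixed field (limma adjusted p 0.0435) and by 0.93 after neutron alone (0.0267), short of a call. Within the only slide that the 15% mixed field shares with x-rays, 1 array against 1, *Oasl2* was higher by 0.44. At an adjusted p below 0.05 alone, 0, 1, 0, and 2 of 8 members passed in the 4 comparisons, against 0, 10, 5.12, and 28% of all genes. *Irf7* after neutron alone was higher by 1.19 (limma adjusted p 0.0758), and without x-ray replicate 5, 1.67, which was called.

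The 25% mixed field and neutron alone had the same neutron dose by the study's methods and were scanned in the same session, and they differed in *Irf7*. It was higher after neutron alone by 1.86 ± 0.24 (SE), a 3.63-fold difference (limma adjusted p 0.000146), with all 6 arrays above all 6 of the mixed field, as were 3.56% of all genes (9.22% were the reverse). In unscaled intensity the *Irf7* arrays overlapped, from 821.1 to 1998 (median 1304) after the 25% mixed field and from 1659 to 3717 (median 2114) after neutron alone. The array medians used for centring were 3.6 to 5.3 and 3.22 to 3.93. *Irf7* was the only member called, against 11.3% of all genes (4.01% higher and 7.33% lower), and at an adjusted p below 0.05 alone 2 of 8 passed, against 26%. On the slide that holds 2 arrays of each group the difference was 2.00, and without neutron-alone replicate 2 it was 1.70. *Ifit1* differed by 0.88 (limma adjusted p 0.0265), which did not reach a call, with 5 of 6 arrays higher. For *Isg15*, *Rsad2*, *Ifit2*, *Ifit3*, *Oas1a*, and *Oasl2* the differences were -0.11, 0.39, 0.31, 0.01, -0.10, and 0.23, and every interval held 0.

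**Figure D3:**
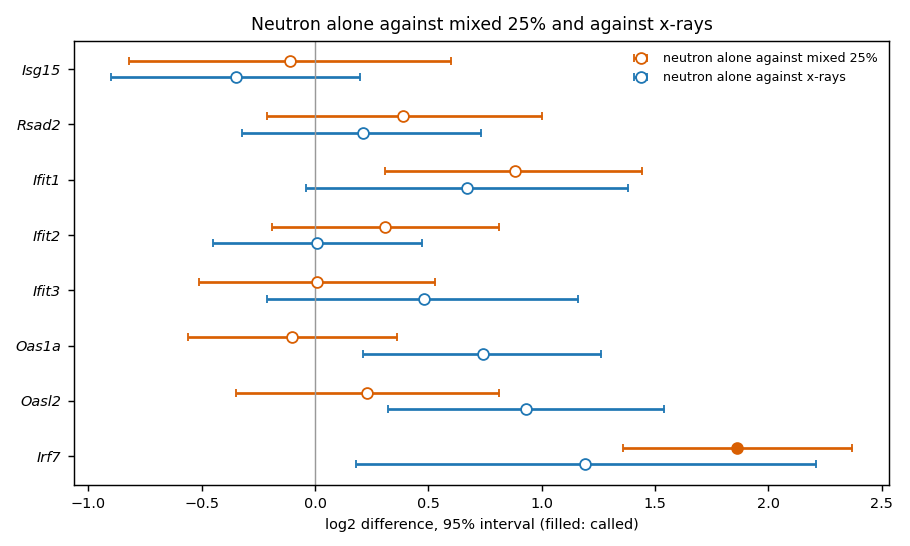
Difference of neutron alone from the 25% mixed field (orange) and from x-rays (blue) for the 8 tested members (y axis), in log2 with the 95% interval of the limma fit (x axis). The only filled dot, a called difference, is *Irf7* against the 25% mixed field at 1.86, with an interval from 1.36 to 2.37.

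Cell type markers moved with these comparisons. The summed level of 4 B-cell markers (*Cd79a*, *Cd79b*, *Ms4a1*, *Cd22*) ran from 10.85 to 11.72 in controls, from 6.54 to 8.36 after the 25% mixed field, and from 9.64 to 10.09 after neutron alone. All 4 were called lower than controls after x-rays and the 3 mixed fields, and 3 of 4 after neutron alone. Among all genes, 16.9, 14, 16.6, 13.9, and 20.4% were called lower after x-rays, 5%, 15%, 25%, and neutron alone. All 4 B-cell markers were called higher after neutron alone than after the 25% mixed field, by a median of 2.73, against 4.01% of all genes. In the comparison of neutron alone with the 25% mixed field, 1 of 5 plasmacytoid dendritic cell markers was called higher (*Pacsin1*, 1.09). Of these 5 markers, 3 were above 0 and 2 below. Of 6 neutrophil, 5 red-cell, and 5 platelet markers, 1 each was called lower, *Ngp* (-1.80), *Ahsp* (-2.27), and *Gp1bb* (-1.44), and 5, 3, and 5 were below 0. In this comparison no monocyte, T-cell, or NK-cell marker was called, of 5, 6, and 5. Against controls, the plasmacytoid marker *Ccr9* was called lower after the 3 mixed fields and neutron alone. *Pacsin1* was called higher after the 15% and 25% mixed fields and neutron alone. Also against controls, the T-cell marker *Cd8a* was called lower after x-rays and the 3 mixed fields. *Cd5* was called lower after the 3 mixed fields and *Cd3d* after 5% and 15%. The monocyte markers *Csf1r* and *Cx3cr1* were called higher after neutron alone. *Ngp* was called higher after every exposure, and *Csf3r* lower after 15%, 25%, and neutron alone. *Pf4* was called higher in these 3 and *Gp1bb* after 15% and 25%. No NK-cell marker was called. The summed plasmacytoid list ran from 8.75 to 9.89 after the 25% mixed field and from 9.79 to 11 after neutron alone, of which *Pacsin1* made up most. On the brightest probes, taken before the fold filter, the sums overlapped, from 10.35 to 11.19 and from 11.12 to 11.79. *Siglech*, another marker of that list, had a mean of 1.23 after the 25% mixed field and 2.35 after neutron alone, a difference that was not called. The summed platelet list ran from 13.75 to 14.88 and from 13.03 to 14.07, and the summed monocyte list from 9.79 to 10.21 and from 10.28 to 10.88. Red-cell markers were called higher than controls in 4, 4, 4, 3, and 5 of 5 genes, against 12.9, 9.01, 12.6, 10.9, and 16.1% of all genes. All markers named were above background in blood, and their part in the member results was not tested.

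Averaged over the 8 members, each array can be set against the control mean. The lowest, median, and highest array were -0.32, -0.02, and 0.34 in controls, -0.17, 0.04, and 0.73 after x-rays, and 0.41, 0.56, and 1.41 after neutron alone. The 5%, 15%, and 25% mixed fields had medians of 0.04, 0.26, and 0.25. Neutron-alone arrays all lay above every control on this mean, and replicate 2, the 1.41, was the highest of its group for all 8 members. X-ray replicate 5, at 0.73, was the highest of its group for 5 of 8 members, *Irf7* among them. The mean joins genes that moved in opposite directions, and *Ifit2* followed the mean of the others with a Pearson r of -0.16 over 36 arrays, against 0.78 for *Ifit1*, 0.59 for *Oasl2*, 0.58 for *Irf7*, 0.37 for both *Oas1a* and *Rsad2*, 0.28 for *Isg15*, and 0.19 for *Ifit3*. With the group means taken out, the same r was 0.16 for *Ifit2* and between 0.31 and 0.82 for the others.

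By the same measure, Pearson r with the mean standardized profile of the members over 36 arrays, the 5 nearest genes outside the list were *Gm17757* (0.75), *Rnf114* (0.72), *Xaf1* (0.72), *Stk17b* (0.71), and *Tspan8* (0.71). With the group means taken out, r was 0.78, 0.83, 0.71, 0.64, and 0.69. The arrays share their scaling and their groups, so these values describe likeness and nothing more. *Xaf1* is itself an interferon-stimulated gene, and it rose by 0.88 after neutron alone (limma adjusted p 0.000577), while *Tspan8*, a tetraspanin, rose by 2.23 (4.32e-06) and was higher than after the 25% mixed field by 1.32 (0.00618).

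In the receptor and signal chain of the pathway most calls were lower. *Ifnar1* was called lower after every exposure, with log2 changes of -1.19 after x-rays, -1.30, -1.68, and -1.31 after the 5%, 15%, and 25% mixed fields, and -1.28 after neutron alone. *Stat2* was likewise called lower throughout, with log2 changes of -1.48, -1.24, -1.45, -1.20, and -1.18. *Irf9* was called lower after x-rays (-1.12) and in no other exposure, while *Jak1* was called higher after neutron alone (1.13). Of 8 tested genes of signal transduction and its inhibitors, 5, 4, 4, 4, and 3 were called lower in the order x-rays, 5%, 15%, 25%, and neutron alone, and 1 was called higher, after neutron alone. The background of lower calls was 16.9, 14, 16.6, 13.9, and 20.4%. *Ifnar2*, *Tyk2*, *Socs1*, and *Eif2ak2* were above background on 36 arrays and varied too little to be tested, and the interferon genes *Ifnb1* and *Ifna4* were above background on 1 and 0 arrays. The interferon genes *Ifna1* and *Ifna2* were tested, and neither was called against controls. The group means of *Ifna2* lay between -1.34 and 0.13, near or below the array median. *Ifna1* had log2 changes of 1.18, -0.60, -0.03, -0.55, and 0.87 (limma adjusted p 0.0478, 0.199, 0.957, 0.307, and 0.0199) and *Ifna2* of 1.43, 0.13, 0.19, -0.04, and 0.06 (0.00433, 0.754, 0.638, 0.94, and 0.856). *Ifna2* was called lower after neutron alone than after x-rays (-1.37, limma adjusted p 0.00487). Both were named after their values were seen.

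Among 12 tested nucleic acid sensors and adaptors, 2, 1, 2, 2, and 2 were called higher and 3, 3, 2, 2, and 0 lower. Of all genes, 12.9, 9.01, 12.6, 10.9, and 16.1% were called higher and 16.9, 14, 16.6, 13.9, and 20.4% lower. *Tlr7*, the endosomal receptor for single-stranded RNA, had log2 changes of 2.22, 2.54, 3.79, 1.84, and 4.03, called in all but the 5% mixed field, and was higher after neutron alone than after the 25% mixed field by 2.20 (limma adjusted p 0.00356). *Mavs*, the mitochondrial adaptor of the RNA helicases, rose by 1.92, 2.22, 2.30, 2.08, and 0.58, and neutron alone differed from the 25% mixed field by -1.51 (limma adjusted p 0.000643), the opposite direction to *Tlr7*. *Mavs* was named after its values were seen. *Ddx58*, the helicase RIG-I, was called lower after x-rays (-1.27) and the 5% mixed field (-0.96), and *Ifih1* was not called (0.06, 0.56, 0.65, 0.61, and 0.21).

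Of 33 other interferon-stimulated genes tested, a list that also holds *Stat2*, *Irf9*, and *Ddx58*, 5, 5, 7, 6, and 6 were called higher and 9, 7, 6, 5, and 6 lower. The background of higher calls was 12.9, 9.01, 12.6, 10.9, and 16.1%, and that of lower calls 16.9, 14, 16.6, 13.9, and 20.4%. The median change of the list was -0.45, -0.22, -0.19, -0.05, and -0.14. *Oas3* rose in every exposure, by 2.08, 2.04, 2.61, 2.33, and 1.73, whereas its family member *Oas1b* had changes of -1.11, -0.74, -1.24, -1.17, and -1.03 and was called lower in all but the 5% mixed field. *Oasl1* was called lower after x-rays (-1.08), and *Oas2* (-0.76, -0.22, 0.25, -0.02, and 0.11) and *Oas1c* (-0.37, 0.08, 0.48, 0.44, and -0.14) were not called. *Mx1* (-0.94, -1.13, -0.78, -0.68, and -0.39), *Ifi44* (-0.41, -0.44, -0.45, -0.22, and -0.01), and *Bst2* (-0.26, 0.27, -0.31, 0.19, and -0.63) were not called in any exposure. Of 13 genes induced chiefly by interferon-gamma, 0 were called higher and 3, 4, 3, 3, and 4 lower, against the same backgrounds. *Ciita* and *Gbp4* were among the lower genes each time and were named after their values were seen.

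**Figure D4:**
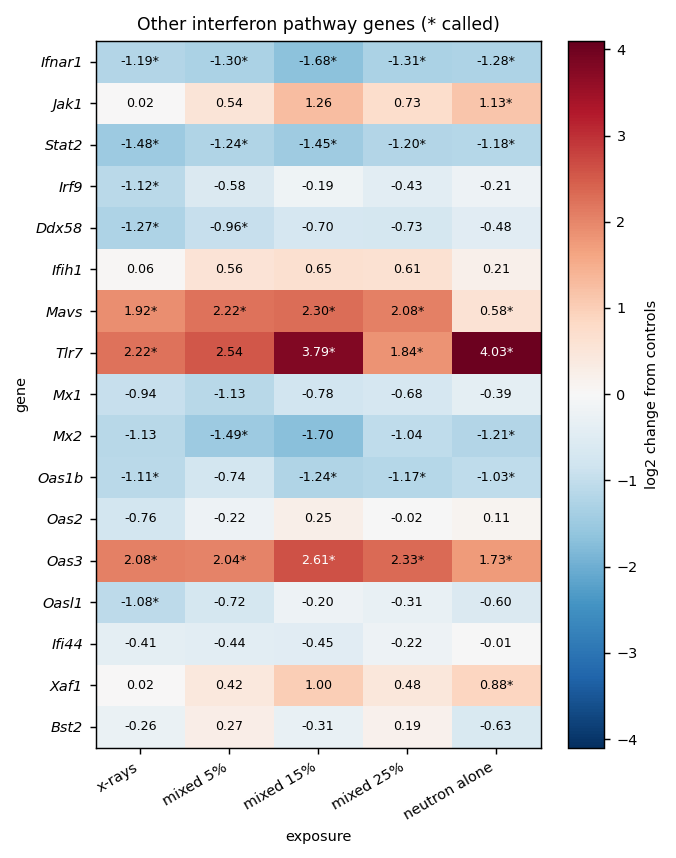
Log2 change from controls of 17 other genes of the interferon pathway (y axis) in the 5 exposures (x axis), with the value printed in each cell, red for higher and blue for lower, and a star where the gene was called. *Tlr7*, *Mavs*, and *Oas3* are red across the row and *Ifnar1*, *Stat2*, and *Oas1b* blue, so that both directions occur within the pathway.

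The processing settings moved the members by different amounts. *Isg15*, *Rsad2*, and *Ifit2* kept their signs against controls in all settings tried but a background model (normexp on all spots) that failed on 11 arrays, under which *Isg15* was at -0.43 after the 5% mixed field and -0.19 after neutron alone, and *Rsad2* at -0.55 after the 5% mixed field. *Irf7* after neutron alone was at -0.67 under that model and between 0.20 and 1.24 in the others.

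**Figure D5:**
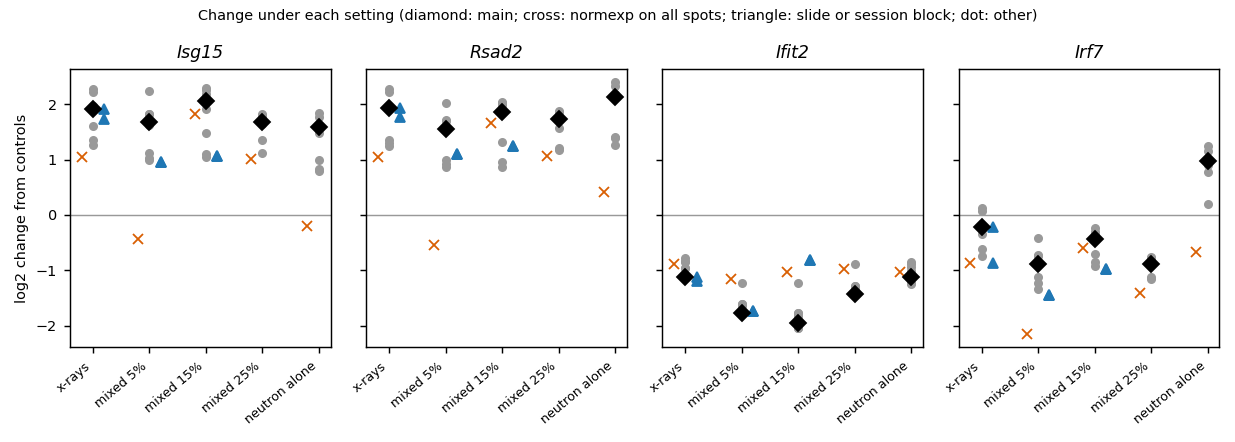
Log2 change from controls (y axis) of *Isg15*, *Rsad2*, *Ifit2*, and *Irf7* in the 5 exposures (x axis) under each setting, with diamonds for the reported value, crosses for normexp on all spots, triangles for fits with slide or scan session as a block, and dots for the others. Every symbol but the crosses lies above 0 for *Isg15* and *Rsad2*, and every symbol lies below 0 for *Ifit2*.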

How the data were processed

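RNA of mouse blood was hybridised by the authors to Agilent single-colour arrays, 36 in all. The deposited values are processed signal intensities from Agilent Feature Extraction 12.0.2, background-subtracted and not normalized between arrays. A deposited table of log2 expression values by the authors, median-normalized per their methods, served as an alternative. Columns of other samples numbered 0.

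Intensities were put on a log2 scale and centred on each array's median. Probes had to be uniform and above background on more than 75% of arrays and at least 1.5-fold from their median on 20% of arrays, and the brightest probe stood for a gene. Each comparison was fitted by limma 3.58.1 (R 4.3.3) on its 12 arrays, in place of the random-variance test of the methods, and called at p below 0.001 with adjusted p below 0.05. The procedure was tested on simulated data. P-values cover the spread between mice, 6 per group, and the number of arrays limits the precision.

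The members and all lists were chosen with earlier results of these data known. Genes were named by a fixed rule: the members, a set of listed pathway genes, *Ifit* and *Oas* relatives, and the 5 nearest profiles. *Mavs*, *Ciita*, *Gbp4*, *Ifna1*, *Ifna2*, and the single markers were named outside it, after their values were seen. A few list genes are not reported here and were left out of the lists' counts and sums. Alternatives covered scaling, background, filters, probe choice, fit, blocks, and leaving out arrays. One background model, normexp without the 100 lowest spots of each array, was added after seeing the data.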

Additional observations from a re-analysis of the deposited data

Results flagged for a closer look

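Over 54 groups of 6 arrays, 6 held an array that stood apart from the rest by Dixon's criterion for 6 values, which chance meets in about 1 in 20 groups. For *Irf7* these were x-ray replicate 5 at 8.73 (the others 5.23 to 6.25), replicate 6 of the 15% mixed field at 8.02 (5.55 to 5.94), and neutron-alone replicate 2 at 8.36 (7.12 to 7.52). The same neutron-alone array was at 5.21 for *Ifit1* (the others 3.70 to 4.24). Control replicate 4 was at 11.57 for *Rsad2* (10.62 to 10.86), and replicate 6 of the 25% mixed field was at 5.59 for *Oas1a* (4.5 to 4.74).

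The effects of neutron alone and of the 25% mixed field on *Irf7* had opposite signs, and the difference between them, tested directly by limma, was 1.86 on the log2 scale (adjusted p 0.000146).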

How the results depend on the processing

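Of the members' values under the alternatives, 528 kept their direction and side of the threshold, 45 lost a call, 15 gained one, and 35 changed sign. The array count and, for dim genes such as *Ifit2*, the signal over background limit the precision. Except where a fit's own construction (fewer arrays or genes) shows it, the cause of a change was not tested. A scan session block could not be fitted for the 25% mixed field or neutron alone against controls or x-rays.

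Signs turned as follows. With the 75th percentile and with quantile normalization *Ifit1* was 0.06 after the 15% mixed field and 0.30 after x-rays, and *Oas1a* 0.14 after x-rays. With the 75th percentile *Irf7* was 0.12 after x-rays. Scaling on probes detected everywhere gave 0.25 (*Ifit1*), 0.07 (*Irf7*), and 0.09 (*Oas1a*) after x-rays, and the deposited expression values gave 0.19 (*Ifit1*) and 0.04 (*Oas1a*). Array weights gave 0.19 for *Ifit1* after the 5% mixed field. Slide and session blocks gave -0.20 for *Oas1a* and -1.08 for *Oasl2* after the 5%, and -0.29 for *Oasl2* after the 15% mixed field, and the slide block -0.14 for *Oasl2* after x-rays. Normexp on all spots, which failed on 11 arrays, gave -0.43 (*Isg15*), -0.55 (*Rsad2*), -0.73 (*Oas1a*), and -1.07 (*Oasl2*) after the 5% mixed field, -0.03 (*Oas1a*) after the 25%, -0.46 (*Oasl2*) after x-rays, and -0.19 (*Isg15*), -0.51 (*Ifit1*), -0.67 (*Irf7*), -0.61 (*Oas1a*), and -0.36 (*Oasl2*) after neutron alone. Without the 100 lowest spots it gave -0.25 (*Oas1a*, 5%), -0.26 (*Oasl2*, x-rays), and -0.06 (*Ifit1*) and -0.17 (*Oas1a*) after neutron alone. Leaving out single arrays moved *Ifit1* from -0.24 to 0.12 after x-rays and from -0.30 to 0.04 after the 15% mixed field, and *Irf7* from -0.70 to 0.00 after x-rays.

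The count of members called changed by more than 1.5 times as follows, given with the number of all genes called. The reported fits called 4492, 3476, 4398, 3737, and 5509 of 15077 genes against controls. They called 623, 389, and 1941 for 15%, 25%, and neutron alone against x-rays, and 1709 for neutron alone against 25%. At adjusted p below 0.05 alone it was 5, 5, 7, and 7 for the 5%, 15%, and 25% mixed fields and neutron alone, against x-rays 1 (15%) and 2 (neutron alone), and 2 for neutron alone against the 25% mixed field. The shares of all genes in the same order were 44.5, 49.6, 47, and 59.5%, then 10 and 28%, then 26%. Array weights gave 5 (15%), and against x-rays 1 (15%) and 1 (neutron alone), and a single model 1 (15% against x-rays). Of all genes, array weights called 5945, 1929, and 3100 in these comparisons, and the single model 1549. Normexp on all spots gave 1 (5%) and otherwise 0 (x-rays, 15%, 25%, neutron alone, and neutron alone against 25%), and without the 100 lowest spots 5 (5%), 1 (25% against x-rays), and 2 (neutron alone against 25%). On all spots, 730 of all genes were called after 5%, and 772, 1143, 779, 795, and 183 in the others. Without the 100 lowest spots these numbers were 3854, 570, and 2215. Slide and session blocks gave 0 (5% and 15%), the deposited expression values gave 1 (5%) and 2 (neutron alone), and quantile normalization 1 (5%). The slide block called only 35 and 60 of 15077 genes there, and the session block 101 and 152. With the deposited values 4057 and 6147 of 13692 genes were called, and with quantile normalization 3662 of 15077. Leaving out single arrays gave 0 to 1 for neutron alone against x-rays.

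Equal replicate numbers did not pair arrays (mean r 0.037 over 90 pairs with the same number and -0.00632 over 450 others). With the replicate block 2, 3, 3, 3, and 3 members were called in the order x-rays, 5%, 15%, 25%, and neutron alone, and 1 for neutron alone against 25%. In the same order that block called 2893, 2087, 3099, 3579, 5086, and 1411 of 15077 genes.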
